A study of Arabidopsis thaliana with 24 samples.

Results

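The 324 probe sets described here had higher signals in dcp5-1 than in control Arabidopsis seedlings in darkness and after white light, in total RNA and in polysome-bound RNA. They were selected on those differences themselves. After each array was centred on its median, a probe set was taken where the dcp5-1 group mean exceeded the control group mean by 0.8 log2 units (1.74-fold) or more in each of the 4 conditions. The conditions are dark total RNA, dark polysomal RNA, light total RNA and light polysomal RNA. Of 22746 probe sets that are no array controls, 17059 had a mean signal over 24 arrays above the lower quartile, and 334 of these met the thresholds. The rule then left out 12 gene names, of which 10 met the thresholds, so that 324 probe sets (1.90% of those tested) remained. The probe table gives 1 gene for 180 of them, several genes for 6 and no name for 138. Because the genotype differences chose the members, those differences are given below as a description, with no test.

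The seedlings were etiolated, grown for 4 d in the dark, and are labelled as aerial parts. The dcp5-1 mutant was compared with a control, both labelled Col-0, and each genotype was either kept dark or given white light for 4 h. Total RNA and polysome-bound RNA were taken from each, which makes 8 groups of 3 replicates, all hybridised to Affymetrix ATH1 arrays. The labels name no complemented line and no other dcp5 allele, so dcp5-1 stands for 1 allele.

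DCP5 is a protein of processing bodies, cytoplasmic granules that hold decapping factors and mRNAs kept out of translation. Decapping removes the cap of an mRNA and opens it to decay from its start, and in the dark processing bodies are known to hold mRNAs that light later releases. Polysome-bound RNA is the fraction that carries several ribosomes at once. A change in polysomal relative to total RNA is therefore a measure of ribosome loading. These are bulk samples, in which more cells that express a gene and more of its RNA per cell cannot be told apart.

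The median deposited signal was 7.33 to 7.44 (log2) on the total-RNA arrays and 4.41 to 6.76 on the polysomal arrays. All values below are log2 signals relative to the median of their own array, so an array-wide shift is not in them. Arrays of 1 group correlated at 0.94 to 0.97, and 0 columns were identical. No probe set carries the name DCP5 in the table, so its own signal is not given. Of the 3888 member values in each genotype, 0 in dcp5-1 and 1 in control were at the lowest value of the array. Values low but above that lowest one are not in this count. Control values far below the array median lie behind some of the largest differences below. They also lie behind the light loadings of AT3G48450 and AT4G33730. The sizes of these are therefore less certain. The number of arrays, 3 in each group, limits the precision of every value.

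The median of the 324 members stood above that of the control in each replicate of each condition. In dark total RNA it was -0.14, 0.86 and 0.63 in dcp5-1 (replicates 1, 2 and 3, as in all such triplets below), against -1.63, -1.07 and -0.75 in control. In light total RNA it was -0.20, 0.47 and 0.41 in dcp5-1, against -1.54, -1.31 and -1.44 in control. Replicate 1 was the lowest array of its group in both genotypes and in every condition. The polysomal arrays gave 0.08, 0.91 and 0.69 in dark dcp5-1, against -1.61, -0.97 and -0.62 in control. In light they gave -0.14, 0.74 and 0.53 in dcp5-1, against -1.61, -1.0 and -1.01 in control. The plot of the member medians by array shows the genotypes apart in all 4 conditions, which the choice of members fixes.

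**Figure D1:**
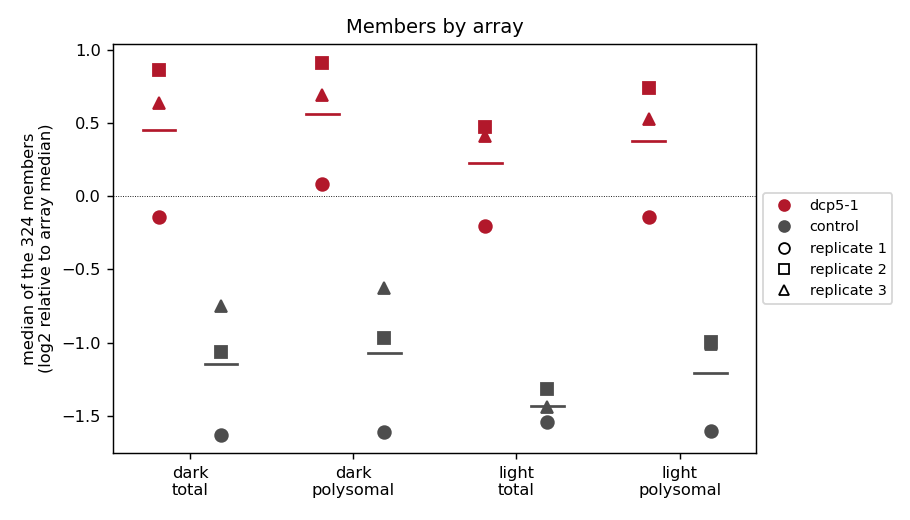
Median of the 324 members on each of the 24 arrays (vertical axis, log2 relative to the array median) by condition (horizontal axis), dcp5-1 left of control; symbols are replicates and bars are group means. The dcp5-1 arrays lie between -0.20 and 0.91 and the control arrays between -1.63 and -0.62.

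The size of the difference varied widely among the members. The mean of the 4 differences had a median of 1.51 (2.85-fold), with quartiles at 1.24 and 2.02, and it reached 4.87 (29.2-fold). In all 4 conditions, 211 members differed by 1 or more, 81 by 1.5 or more, 42 by 2 or more and 9 by 3 or more. The medians by condition were alike, at 1.45 in dark total, 1.46 in dark polysomal, 1.55 in light total and 1.51 in light polysomal RNA, where those of all tested probe sets lay between -0.02 and -0.01. Of the 12 pairs of arrays with the same replicate number, all were higher in dcp5-1 for 270 members, 11 for 37 and 8 to 10 for the other 17.

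The arrays of the genotypes did not overlap in any of the 4 conditions for 185 members, where 1.99% of all tested probe sets had such a separation with dcp5-1 higher. By condition, 244 members did not overlap in dark total RNA (background 9.35%), 239 in dark polysomal RNA (9.57%), 288 in light total RNA (12.1%) and 258 in light polysomal RNA (10.3%). At the other end, 20 members overlapped in all 4 conditions. These counts follow from the rule, and nothing is read from them.

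Of the 12 members with the largest mean difference, 4 carry 1 gene name, and the others are given by probe set. AT4G38080 encodes a hydroxyproline-rich glycoprotein, a class of cell wall proteins, and had a mean difference of 4.30 (log2). It stood at 1.17, 3.92 and 3.54 in dark dcp5-1 total RNA, against -1.64, -0.62 and -1.5 in control. Light total RNA gave 1.78, 4.05 and 4.04 in dcp5-1, against -1.33, -0.59 and -1.64 in control. Every dcp5-1 array was above every control array in both, although replicate 1 of dcp5-1 was more than 2 log2 units below the other two. Its polysomal values were 0.37, 2.96 and 2.61 in dark dcp5-1 against -2.26, -1.45 and -2.56 in control. After light they were 0.96, 3.45 and 3.42 in dcp5-1, against -1.69, -1.34 and -2.65 in control.

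AT1G54540 encodes a protein of the late embryogenesis abundant and NHL type, named after proteins of desiccation and defence, and differed by 3.91 on average. Dark total RNA gave -1.24, 0.73 and 0.88 in dcp5-1, against -5.70, -2.07 and -2.54 in control. In light total RNA it reached 1.12, 2.71 and 2.52 in dcp5-1, against -1.97, 0.02 and -1.66 in control. The signal was thus higher after light in both genotypes, with the separation between them kept. Dark polysomal RNA gave -0.78, 1.57 and 0.89 in dcp5-1 against -5.05, -3.45 and -3.68 in control, and light polysomal RNA 1.09, 3.20 and 2.89 against -1.94, -0.99 and -2.25.

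AT5G24240 encodes a phosphatidylinositol 4-kinase of the gamma type and differed by 3.81. Its dark total values were 0.43, -0.61 and -0.70 in dcp5-1, against -3.44, -3.67 and -2.50 in control. In light total RNA they were 0.53, -1.04 and -0.74 in dcp5-1, against -4.50, -4.02 and -4.44 in control. Here replicate 1 was the highest dcp5-1 array in each condition. The polysomal fraction held 0.45, -0.92 and -0.43 in dark dcp5-1 against -3.22, -4.97 and -4.43 in control, and 0.05, -1.33 and -0.80 in light dcp5-1 against -4.99, -4.53 and -6.15 in control.

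AT5G09480, another hydroxyproline-rich glycoprotein gene, differed by 3.55 with a wide spread. Replicates 1, 2 and 3 gave -1.45, 1.05 and -0.14 in dark dcp5-1 total RNA, against -5.16, -2.81 and -2.96 in control. Light total RNA gave -1.82, 1.24 and 0.94 in dcp5-1, against -5.44, -2.88 and -4.65 in control. The genotypes were apart in 3 of 4 conditions and overlapped in light polysomal RNA, at -1.77, 1.41 and 0.62 in dcp5-1 against -4.07, -1.58 and -2.31 in control. Dark polysomal RNA gave -2.51, 0.61 and -0.30 in dcp5-1, against -7.01, -3.23 and -2.60 in control.

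The largest mean difference of all, 4.87, belonged to 254805_at, whose 12 dcp5-1 arrays ran between -1.57 and 3.10, against -6.54 to -2.14 on the 12 control arrays. Next came 250500_at, with 4.42, at 1.37 to 5.00 on the dcp5-1 arrays, against -2.12 to 0.89 in control. Both sets of arrays were apart without exception. The probe set 256766_at, with 4.24, ran between 1.87 and 4.69 in dcp5-1 and between -2.70 and 0.74 in control. At 3.91, 262406_at lay between -2.98 and 0.91 in dcp5-1, against -5.65 to -2.21 in control, so its ranges over all conditions met although each condition was apart. The remaining ones in this group were 247205_at (3.81), 250541_at (3.81), 251226_at (3.69) and 263063_s_at (3.57, a probe set with several genes), apart in 3 conditions for 247205_at and in 4 for the others.

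**Figure D2:**
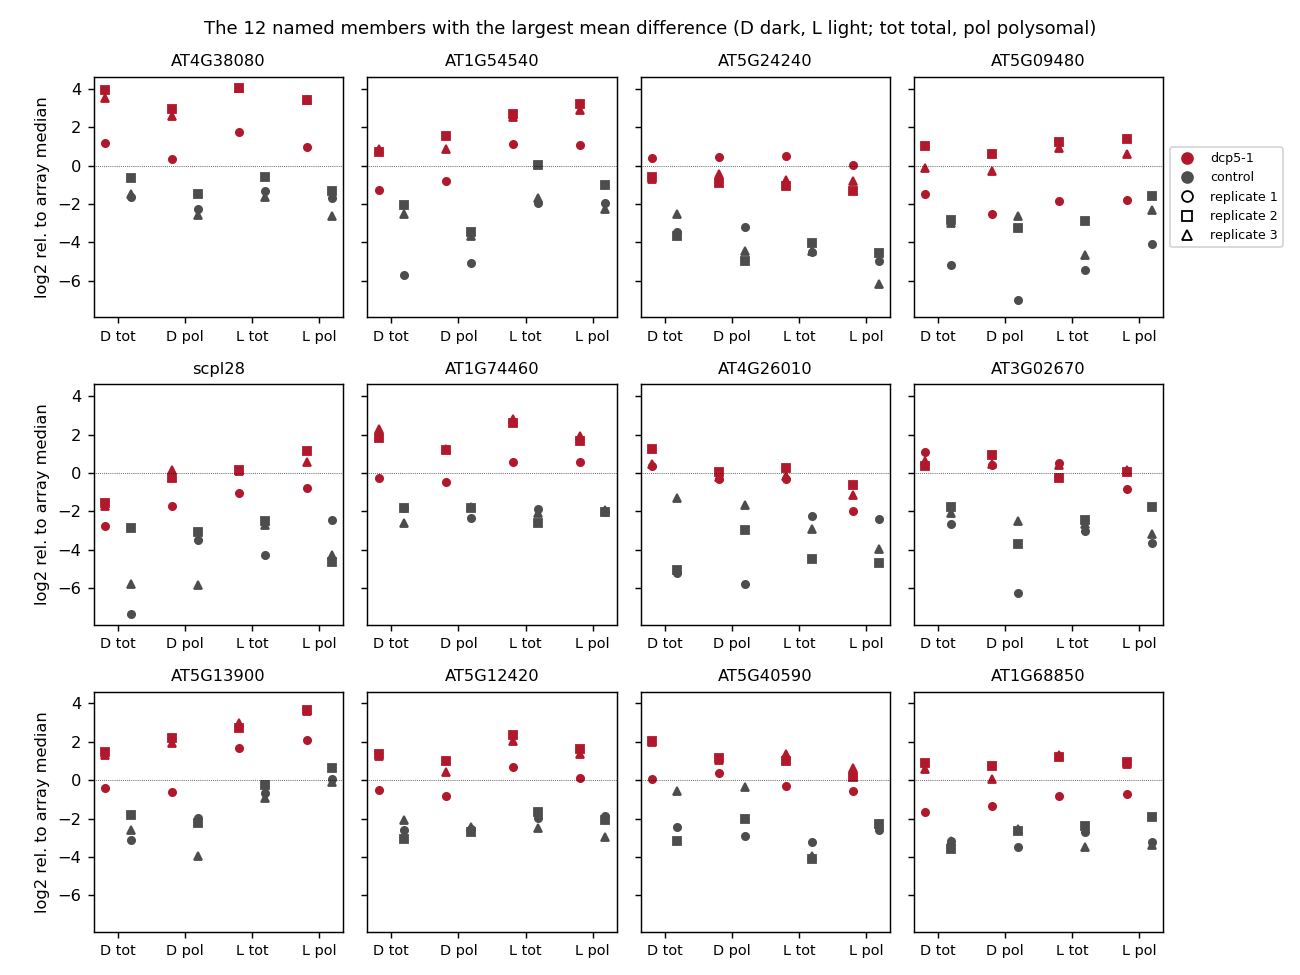
Signal on every array (vertical axes, log2 relative to the array median) for the 12 members with 1 gene name and the largest mean difference, by condition (horizontal axes), dcp5-1 left of control; symbols are replicates. AT4G38080 shows the largest mean difference, 4.30, and AT1G68850 the smallest of the 12, 3.14.

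Roles were given to 95 named members in 12 groups, written with the membership in view, so the groups describe the members and their sizes are no test. Counts of members without overlap in all 4 conditions are given by group below. They follow from the rule and stand beside 185 of the 324 members and 1.99% of all tested probe sets. Nothing is read from them. The plot of mean differences by role shows the spread in each group. Group medians ran between 1.28 for signalling and transcription and 2.56 for surface lipid synthesis.

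**Figure D3:**
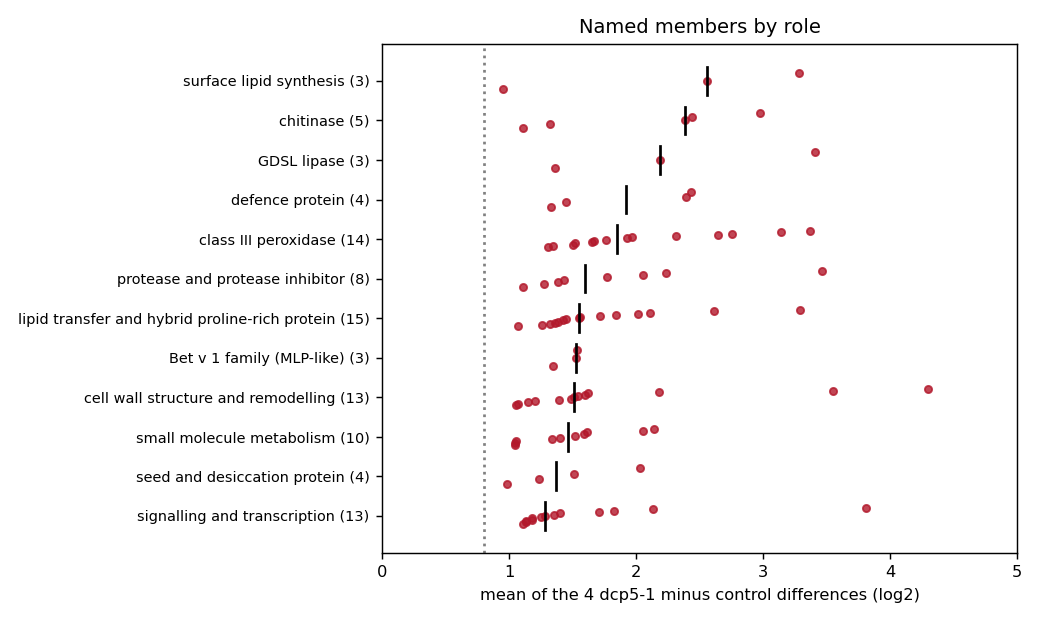
Mean of the 4 dcp5-1 minus control differences (horizontal axis, log2) for the 95 named members with a role (points), by role group with the number of members in brackets (vertical axis). Black bars are group medians, the dotted line is the threshold of 0.8 that each of the 4 differences had to reach. Group medians lie between 1.28 and 2.56.

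The 14 class III peroxidases formed the second largest group. These are secreted haem enzymes that use hydrogen peroxide to cross-link or loosen cell wall polymers. Their mean differences ran between 1.30 and 3.37, with a median of 1.85, and 10 of the 14 were without overlap in all 4 conditions. AT4G26010, a peroxidase gene of the root hair list, stood at 0.35, 1.24 and 0.47 in dark dcp5-1 total RNA, against -5.22, -5.04 and -1.30 in control. In light total RNA it stood at -0.31, 0.28 and -0.17 in dcp5-1, against -2.25, -4.50 and -2.92 in control. The dcp5-1 arrays lay close together, and the control arrays spread over nearly 4 log2 units in the dark. AT1G68850 differed by 3.14, with -1.68, 0.91 and 0.57 in dark dcp5-1 total RNA against -3.17, -3.58 and -3.18 in control. AT5G14130 differed by 2.75, and its difference was larger in light (3.27 in total and 3.72 in polysomal RNA) than in the dark (2.09 and 1.93), a contrast that was not tested.

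Further peroxidase members were AT2G35380 (mean difference 2.65), AT1G49570 (2.31), AT5G39580 (1.93), AT4G08780 (1.76), AT1G14550 (1.66), AT5G06730 (1.65), Prx37 (1.51), AT3G01190 (1.5) and AT2G18980 (1.34). AT5G64120, known as PRX71, stood at 4.21, 5.34 and 5.19 in dark dcp5-1 total RNA, against 2.95, 2.35 and 4.03 in control. AT5G66390, known as PRX72 and as a lignin peroxidase, stood at 5.43, 6.29 and 6.12 in dark dcp5-1 total RNA, against 4.40, 5.25 and 4.85 in control. Both sets were apart, by less than 2 log2 units on average. Not all of the family differed. Of 73 class III peroxidase genes listed, 55 are named on the array and 39 were tested: 14 were members, 4 met the thresholds but were left out by name, and 21 others, among them AT4G30170, which the rule also names but which did not meet the thresholds, had a median mean difference of 0.11, between -0.51 and 1.25. Among those 21, 6 were above 0 in all 4 conditions and 2 below 0 in all 4.

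Lipid transfer proteins and hybrid proline-rich proteins, small secreted proteins that share a fold of cysteine bridges and bind lipids, numbered 15. Their median mean difference was 1.55, between 1.06 and 3.29, and 7 were without overlap in all 4 conditions. AT5G13900 stood at -0.43, 1.48 and 1.30 in dark dcp5-1 total RNA, against -3.09, -1.82 and -2.57 in control. In light total RNA it stood at 1.68, 2.70 and 3.0 in dcp5-1, against -0.68, -0.22 and -0.94 in control. It was higher after light in both genotypes. AT5G05960 was among the most even members, at 2.59, 2.47 and 2.75 in dark dcp5-1 total RNA against 1.25, 0.97 and 0.97 in control. AT3G22620 stood at 5.21, 5.87 and 5.76 in dark dcp5-1 total RNA, against 4.23, 4.92 and 4.49 in control. Others were AT4G12490 (2.62), AT1G62510 (2.11), AT2G37870 (2.01), AT5G01870 (1.71), AT4G22470 (1.56), AT4G22640 (1.55), AT2G18370 (1.42), AT1G05450 (1.38), AT2G48130 (1.36), AT3G58550 (1.32), AT3G53980 (1.26) and AT4G22610 (1.06).

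Cell wall structure and remodelling held 13 members with a median of 1.51, and 7 of them were without overlap in all 4 conditions. Beside AT4G38080 and AT5G09480 they included HRGP1 (1.54), another hydroxyproline-rich glycoprotein. XTH20 (1.2) encodes a xyloglucan endotransglucosylase, which cuts and rejoins xyloglucan chains, and GH9C1 (1.51) an endoglucanase. Pectin enzymes were represented by AT5G04310 (1.60), a pectate lyase, and by ATPMEPCRB (1.15), AT2G47550 (1.39) and AT5G04960 (1.49), pectin methylesterases, with AT5G46940 (1.07) as an inhibitor of invertase or pectin methylesterase. AT2G43670 (1.62) has a carbohydrate-binding domain and AT5G55180 (1.05) is of the glucanase type, and AT2G41800 (2.18) is the last of the group.

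Surface lipids and lipases had few members with large differences. AT5G12420, a wax ester synthase and diacylglycerol acyltransferase of the WSD type, stood at -0.53, 1.35 and 1.24 in dark dcp5-1 total RNA, against -2.60, -3.08 and -2.09 in control. In light total RNA it stood at 0.67, 2.36 and 2.06 in dcp5-1, against -1.96, -1.65 and -2.49 in control. Both conditions were apart by more than 1.5 log2 units. AT5G08250 (2.56), a cytochrome P450 of the fatty acid hydroxylase type, overlapped in 2 conditions. WSD1, the wax ester synthase of stem wax, had a mean difference of 0.95 and overlapped in all 4 conditions, at 1.39, 0.42 and 0.29 in dark dcp5-1 total RNA against -0.48, 0.35 and -1.02 in control. The GDSL lipases, secreted esterases named for a sequence motif, were AT1G74460 (3.40), AT5G55050 (2.19) and AT5G37690 (1.36). AT1G74460 stood at -0.26, 1.84 and 2.29 in dark dcp5-1 total RNA, against -1.85, -1.85 and -2.62 in control.

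Chitinases, which cut the chitin of fungal walls, gave 5 members with a median of 2.39. AT2G43620 differed by 2.97, with -0.75, 0.37 and 0.66 in dark dcp5-1 total RNA against -4.14, -2.42 and -1.89 in control. AT4G01700 differed by 2.39, with 1.23, 2.83 and 2.58 in dark dcp5-1 total RNA against -1.18, -0.35 and 0.33 in control. Both were apart in all 4 conditions, as were AT4G19720 (2.44) and AT2G43610 (1.32), and AT1G02360 (1.11) was apart in 2. Of 24 chitinase genes listed, 15 are named and 10 were tested. The 5 tested genes that are no members had mean differences between 0.04 and 1.07, with a median of 0.82, and 4 of them were above 0 in all 4 conditions.

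Defence proteins were AT4G33730 (2.43), of the pathogenesis-related 1 type, AT3G48450 (2.39), with the NOI domain of the RIN4 family, AT3G48080 (1.45), of the EDS1 family, and LCR67 (1.33), a plant defensin. LCR67 was higher in dcp5-1 in 12 of 12 same-number pairs, yet its arrays overlapped in all 4 conditions. In dark total RNA it stood at 0.50, 2.56 and 1.13 in dcp5-1, against -0.87, 0.17 and 1.04 in control. Replicate 1 was the lowest in both genotypes.

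Proteases and their inhibitors numbered 8, with a median of 1.60. The serine carboxypeptidase-like gene scpl28 differed by 3.46, with -2.78, -1.57 and -1.71 in dark dcp5-1 total RNA against -7.33, -2.85 and -5.81 in control. Its control value of replicate 1 was the only member value at the lowest signal of its array. MMP (2.05) encodes a matrix metalloproteinase, AT2G03200 (1.77) an aspartic protease, DELTA-VPE (1.43) a vacuolar processing enzyme, and AT1G29090 (1.39) and AT2G34080 (1.27) papain-type cysteine proteases. AT5G48430 (2.24) and AT1G17860 (1.11) encode inhibitors, the second of the Kunitz type.

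Signalling and transcription gave 13 members with the lowest median, 1.28. WRKY53, a transcription factor of senescence and defence, stood at -0.82, 0.04 and 0.14 in dark dcp5-1 total RNA, against -2.51, -1.06 and -1.26 in control. STZ, the zinc finger repressor ZAT10 of stress responses, stood at -0.53, 0.66 and 0.28 in dark dcp5-1 total RNA, against -1.61, -0.76 and -0.22 in control. WRKY53 was apart in all 4 conditions and STZ in 2. The VQ proteins, partners of WRKY factors, were AT2G22880 (1.70), AT4G15120 (1.25) and AT1G80450 (1.18). CML41 (1.83) and AT5G39670 (1.11) encode calmodulin-like calcium sensors, UBC31 (2.13) a ubiquitin-conjugating enzyme, and AT2G42350 (1.4) and AT5G67340 (1.13) ubiquitin ligases. AT1G66880 (1.36) and AT2G19130 (1.13) encode receptor-like kinases.

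Small molecule metabolism held 10 members. AT3G13610 (1.61) encodes the dioxygenase F6'H1 of coumarin synthesis, AT5G38710 (1.05) a proline dehydrogenase, AT1G12010 (1.05) an ACC oxidase that makes ethylene, and AT2G21045 (2.06) an arsenate reductase. AT2G21045 stood at 1.62, 1.52 and 2.13 in dark dcp5-1 total RNA, against -0.87, -0.43 and 0.45 in control. AT3G13610 stood at -0.22, 1.48 and 1.71 in dark dcp5-1 total RNA, against -1.67, -0.35 and 1.83 in control. The first was apart in all 4 conditions, while in the second the control array of replicate 3 exceeded every dcp5-1 array. AT5G42830 (2.14) and AT4G15390 (1.52) encode acyltransferases, BGLU45 (1.59) and BGLU19 (1.34) beta-glucosidases, AT4G20860 (1.4) a berberine bridge-type oxidase and CYP71B23 (1.05) a cytochrome P450.

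Seed and desiccation proteins varied widely between replicates in both genotypes. M17, a late embryogenesis abundant protein, stood at -1.99, 3.19 and 2.36 in dark dcp5-1 total RNA, against -3.52, 0.32 and 2.64 in control. PAP85, a vicilin-like seed protein, stood at -1.74, 2.72 and 2.60 in dark dcp5-1 total RNA, against -2.24, 0.48 and 2.75 in control. Replicate 1 was the lowest in both genotypes, and the control array of replicate 3 exceeded the dcp5-1 array of replicate 3 in both genes. AT1G72100 (2.03) and AT3G17520 (1.23) are late embryogenesis abundant proteins as well. Of the 4, 0 were apart in all 4 conditions and 0 were higher in all 12 same-number pairs.

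The neighbouring genes AT1G14930, AT1G14950 and AT1G14960, of the Bet v 1 family of ligand-binding proteins, followed in part the same pattern. AT1G14950 stood at -1.68, 3.65 and 2.81 in dark dcp5-1 total RNA, against -2.82, 1.18 and 3.25 in control. AT1G14930, with 8 of 12 pairs higher, was the member with the fewest. By contrast AT1G14960 (1.53) was apart in all 4 conditions.

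The groups were set beside markers of seeds. Of 26 seed genes listed, LEA4-5, AtLEA4-1 and LEA18 are named on the array, and the rule names all of them as left out, LEA4-5 being 0.77 higher in light dcp5-1 total RNA and so under the threshold. Their summed signal, as multiples of the array median, was 10.8 to 16.4 in dark dcp5-1 total RNA against 2.03 to 9.63 in control, and 17.8 to 23.6 in light dcp5-1 total RNA against 6.02 to 9.79 in control. In polysomal RNA it was 17.3 to 29.5 in dark dcp5-1 against 2.40 to 18.0 in control, and 27.3 to 36.6 in light dcp5-1 against 9.36 to 19.9 in control. Of these 4 conditions the genotypes overlapped only in dark polysomal RNA, and 0 of the 3 genes were at the lowest value on any array. AtLEA4-1 and LEA18 met the thresholds of the rule, so the difference in the sum follows in part from it. Nothing is read from that difference. Their part in the members' differences was not tested.

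The label of aerial parts was set against 3 lists of root genes, of which 8 of 83 genes are named on the array. The 6 root hair genes named, AT4G26010, AT1G30870, EXPA7, EXPA18, XTH26 and SCN1, summed to 15.4 to 16.2 array medians in dark dcp5-1 total RNA against 10.9 to 12.3 in control, and to 10.1 to 12.3 in light dcp5-1 total RNA against 9.18 to 9.66 in control. In polysomal RNA they summed to 17.5 to 20.8 in dark dcp5-1 against 15.9 to 16.9 in control, and to 14.2 to 17.6 in light dcp5-1 against 11.4 to 17.0 in control. Of the 6, AT4G26010 is a member, and AT1G30870 and EXPA18 met the thresholds but were left out by name. The difference in the sum thus follows in part from the rule. SCN1, which acts in root hair initiation and stood at a level of 3.59, differed by -0.05 to 0.14 between the genotypes, while EXPA7 differed by 1.44 to 2.77 at a mean level of -3.42, under the filter on dim probe sets. XTH26 was at the lowest value of the array on 2 arrays, and the other 5 on 0. GSO1, the single endodermis gene named, stood at 7.04 to 7.54 in dark dcp5-1 total RNA against 6.85 to 7.90 in control, and to 4.21 to 5.06 in light dcp5-1 total RNA against 3.08 to 4.35 in control. In polysomal RNA GSO1 stood at 7.73 to 11.2 in dark dcp5-1 against 8.42 to 9.28 in control, and to 3.55 to 7.11 in light dcp5-1 against 4.35 to 6.28 in control. PYK10, the beta-glucosidase of endoplasmic reticulum bodies, was the only gene named of the third list. PYK10 gave 104 to 126 in dark dcp5-1 total RNA against 97.2 to 136 in control, 109 to 160 in dark dcp5-1 polysomal RNA against 137 to 160, 122 to 155 in light dcp5-1 total RNA against 116 to 145, and 125 to 190 in light dcp5-1 polysomal RNA against 147 to 180 in control. The part of root tissue in the members' differences was not tested.

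A further 85 named members were given no role. Their median mean difference was 1.33, and 51 of them were without overlap in all 4 conditions. Beside AT1G54540, those with the largest mean difference were AT3G02670 (3.3), AT5G40590 (3.24), AT1G65500 (3.04) and AT1G51920 (2.98). AT3G02670 stood at 1.11, 0.38 and 0.63 in dark dcp5-1 total RNA, against -2.68, -1.76 and -2.08 in control. AT5G40590 stood at 0.06, 2.04 and 2.0 in dark dcp5-1 total RNA, against -2.45, -3.19 and -0.56 in control. Both were apart in all 4 conditions.

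The group also held AT2G22510, AT3G46280, AT1G56320, AT4G24130, AT5G10210, AT4G36610, AT1G74010, AT3G28500, AT1G63530, AT1G56060, AT1G04660, AT4G04990, AT2G16760, AT3G61930, AT4G18425, AT3G62950, AT2G44380, AT3G29970, AT3G07600, AT1G10340, AT5G52750, AT5G19240, AT2G17740, AT3G56730, AT2G44010, AT5G44580, AT1G22690, AT1G36640 and AT1G43590. Others were AT5G55560, AT1G13340, AT5G17650, AT4G18280, AT3G58000, AT4G25020, AT3G60700, AT5G43520, AT1G03660, AT4G13120, AT1G72660, AT2G27080, AT1G06830, AT3G22240, Hsp70-2, AT4G39955, AT3G28540, AT5G60610, AT4G32020, AT4G39190, AT3G56350, AT1G65690, AT2G15560, AT1G21670 and AT1G18830. It ended with AT1G62840, AT2G25625, AT2G03850, AT1G30750, AT5G58570, AT2G32190, AT1G15790, AT5G39520, AT4G39675, AT5G10695, AT5G59490, AT4G17483, AT5G17760, AT3G56250, AT5G17340, AT1G78110, AT5G48540, AT5G40510, AT1G63720, AT3G05390, AT1G22885, AT1G49310, AT1G28400, AT1G69790, AT1G73750 and AT3G26470. Among them AT3G62950 and AT1G06830 encode glutaredoxins, AT3G28540 and AT5G17760 AAA-type ATPases, and AT1G22690 a GASA-type peptide. The 144 members with no single gene name had a median of 1.58, against 1.45 for the 180 named ones.

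The light response is independent of the genotype differences when it is averaged over both genotypes, so it was tested. In total RNA light raised 28 members and lowered 75, which is 8.64% and 23.1% of the members, where limma at an adjusted p of 0.05 called 17.9% of all tested probe sets higher and 22.2% lower. In polysomal RNA light raised 26 members and lowered 64, or 8.02% and 19.8%, against 17.6% and 21.2% of all tested probe sets. With the replicate number as a block, 42 members were raised in polysomal RNA, against 21.1% of all tested probe sets. With all arrays the share lowered was thus near that of all probe sets, and the share raised was below it. Without replicate 1, 89 members were lowered in total RNA and 76 in polysomal RNA, when 18.1% and 16.8% of all tested probe sets were. The share lowered was then above that of all, so its nearness did not hold without replicate 1. The share raised stayed below, at 35 members in each fraction against 15.8% and 15.2% of all. The median light change of the members was -0.24 in total RNA and -0.21 in polysomal RNA, against -0.06 and -0.04 over all tested probe sets. Without the arrays of replicate 2 or of replicate 3, 45 and 46 members were lowered in total RNA, when 17.7% and 14.6% of all tested probe sets were. Without replicate 3, 17 were raised in polysomal RNA, against 12.3% of all. The same 54 members were lowered and 22 raised in both fractions, 0 were called in opposite directions, and 207 were called in neither. These joint counts were made for the members only. They cannot be set against all tested probe sets, and nothing is read from them.

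**Figure D4:**
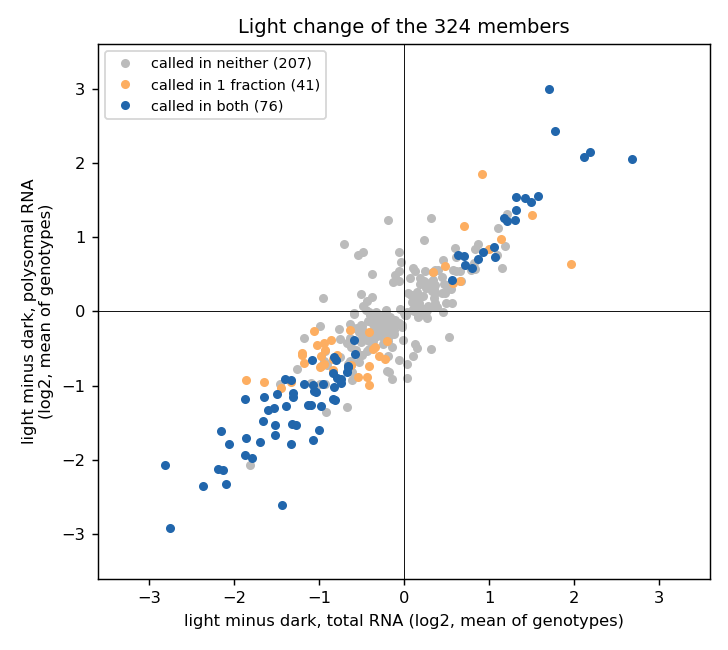
Light minus dark in total RNA (horizontal axis) and in polysomal RNA (vertical axis), both log2 and averaged over the genotypes, for the 324 members (points), coloured by the fractions in which the change passed an adjusted p of 0.05. The 76 members called in both fractions lie in the lower left (54) or the upper right (22).

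Among the members that light raised, AT1G62510, a lipid transfer-type protein, rose by 2.18 ± 0.25 (log2, SE) in total RNA and 2.14 ± 0.25 in polysomal RNA (limma adjusted p = 1.5e-07 and 2.14e-07). In total RNA it stood at 5.56, 5.16 and 5.19 in light dcp5-1 against 4.43, 3.89 and 3.79 in dark dcp5-1. In control it stood at 4.62, 3.87 and 3.97 in light against 1.86, 0.44 and 0.86 in the dark. All light arrays were above the dark arrays of their genotype, and the difference between the genotypes was 1.15 in light and 2.98 in the dark. AT1G54540 rose by 2.11 ± 0.58 in total RNA (limma adjusted p = 0.00565), with the array values given above. The probe set 253052_at rose by 2.68 ± 0.25 in total RNA (limma adjusted p = 7.82e-09). It measured 1.91 to 2.50 in light dcp5-1 against -0.37 to -0.07 in dark dcp5-1, and -0.14 to 0.09 in light control against -3.49 to -1.76 in dark control.

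AT1G22690, the GASA-type peptide, rose most in polysomal RNA, by 2.99 ± 0.19 (limma adjusted p = 1.19e-11). It stood there at 1.35, 1.61 and 1.48 in light dcp5-1 against -1.15, -0.72 and -0.81 in dark dcp5-1. In control it stood at 0.03, 0.07 and -0.20 in light against -2.88, -3.85 and -4.21 in the dark. The groups did not overlap. AT5G13900 rose by 2.42 ± 0.45 in polysomal RNA (limma adjusted p = 0.000147), with 2.08, 3.64 and 3.62 in light dcp5-1 against -0.60, 2.17 and 1.93 in dark dcp5-1. Its control arrays stood at 0.05, 0.62 and -0.10 in light against -1.96, -2.21 and -3.96 in the dark. Of the 15 lipid transfer and hybrid proline-rich members, 4 rose and 0 fell in each fraction, where light raised 17.9% and 17.6% of all tested probe sets in the total and the polysomal fraction. The group was written with the members in view, and the count describes it.

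Among the members that light lowered, AT2G22880, a VQ protein, fell by 2.82 ± 0.28 in total RNA (limma adjusted p = 2.79e-08). It stood at -2.06, -1.16 and -2.32 in light dcp5-1 against 0.03, 0.47 and -0.10 in dark dcp5-1, and at -4.44, -3.66 and -5.19 in light control against -0.91, -1.02 and -0.41 in dark control. AT5G38710, the proline dehydrogenase that breaks proline down, fell by 2.75 ± 0.25 in total RNA and by 2.92 ± 0.25 in polysomal RNA (limma adjusted p = 6.18e-09 and 2.51e-09). In total RNA it stood at -1.27, -0.63 and -0.80 in light dcp5-1 against 2.23, 1.65 and 1.87 in dark dcp5-1. In control it stood at -2.23, -1.65 and -1.78 in light against 1.19, 0.70 and 0.52 in the dark. The light change exceeded the mean genotype difference of 1.05 in this gene. The probe set 267083_at fell by 2.36 ± 0.18 and 2.35 ± 0.18 in the total and the polysomal fraction (limma adjusted p = 2.79e-10 and 3.12e-10). It measured 2.39 to 3.23 in light dcp5-1 total RNA against 5.03 to 5.52 in dark dcp5-1, and 1.16 to 2.05 in light control against 3.77 to 4.49 in dark control. In polysomal RNA 258586_s_at fell by 2.61 ± 0.30 (limma adjusted p = 2.98e-07).

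The counts by role stand beside 22.2% of all tested probe sets lowered in total RNA and 21.2% in polysomal RNA, and they describe small groups. Light lowered 6 of 14 peroxidases in total RNA and 2 in polysomal RNA, and raised 0 in either. The 6 were AT1G14550, Prx37, AT4G08780, AT5G39580, AT1G49570 and AT3G01190, with changes between -1.33 and -0.64. In the cell wall group it lowered 4 of 13 in each fraction. Those in total RNA were AT5G04310, ATPMEPCRB, XTH20 and AT5G04960. Of the 10 members of small molecule metabolism it lowered 5 in each fraction, with F6'H1 (AT3G13610) at -2.15 and ACC oxidase (AT1G12010) at -1.33 in total RNA, and raised BGLU45 by 0.93. WSD1 fell by 2.13 in total RNA and by 2.14 in polysomal RNA. None of the seed, Bet v 1 and defence groups, which hold 11 members, passed the test in either fraction.

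Ribosome loading, the polysomal minus the total value, was tested in the same way over both genotypes. In the dark 34 members had a higher and 13 a lower polysomal value, or 10.5% and 4.01% of the members, against 16.7% and 12.8% of all tested probe sets. In light 39 were higher and 13 lower, or 12% and 4.01%, against 17.0% and 12.4%. Both shares were below those of all probe sets. With the lower 50% of probe sets left out, 29 of 133 members were higher in the dark, against 2587 of 11373 tested. In light 28 were higher, against 2600, so the share higher was then near that of all. The lower members, 10 in the dark and 9 in light against 1812 and 1766, stayed below it. The median loading of the members was 0.10 in the dark and 0.14 in light, against 0.04 and 0.05 over all tested probe sets. A block for replicate number gave 23 lower members in the dark, against 17.3% of all tested probe sets. Without a replicate the shares over all tested probe sets were smaller too. Without replicate 3 the counts were 13 higher and 4 lower in the dark, against 6.13% and 4.33% of all tested probe sets. In light they were 14 higher and 4 lower, against 5.94% and 3.76%. Without replicate 2, 20 were higher and 7 lower in the dark, against 10.7% and 8.21% of all. In light 8 members were then lower, against 1280 of 17059 tested probe sets. Single arrays were left out too. In the dark 7 members were lower without the control total array of replicate 3, and 8 without the dcp5-1 one. Of all tested probe sets 1936 and 1877 were lower in these fits, in that order, against 2181 with all arrays. The values are relative to the array median. Without that centring 0 members were higher and 296 lower in the dark, and 0 higher and 145 lower in light. Of all 17059 tested probe sets, 16786 were then lower in the dark and 12632 in light.

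The light change of loading, added after the data were seen, called 0 members higher and 0 lower with limma, against 0.00586% and 0% of all tested probe sets. At an unadjusted p under 0.05 there were 2 of 324 members, against 593 of 17059 tested probe sets. The block and array weights each gave 1 higher, as did leaving out the dark polysomal control array of replicate 1. Of all tested probe sets 29, 6 and 7 were higher in these fits, in that order.

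Higher loading was largest in the dark for AT1G78110, at 1.48 ± 0.25 (limma adjusted p = 0.000144). Its polysomal values were 2.1, 2.76 and 2.56 in dark dcp5-1, against 1.12, 1.31 and 0.68 in total RNA. In dark control they were 1.22, 1.83 and 1.35, against 0.02, 0.04 and -0.21 in total RNA. AT3G53980, a lipid transfer-type protein, had 1.23 ± 0.25 (limma adjusted p = 0.00069), at 2.98, 2.97 and 3.34 in dark dcp5-1 polysomal RNA against 1.97, 1.85 and 1.18 in total RNA. All same-number pairs of both genes were higher in polysomal RNA in the dark, but without median centring the loading was -0.29 for AT1G78110 and -0.54 for AT3G53980. AT1G65500 had 1.4 ± 0.40 (limma adjusted p = 0.0105), lost the call in 2 alternatives and stood at -0.37 without median centring.

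In light the largest loading was that of 251226_at, 1.88 ± 0.45 (limma adjusted p = 0.00297), one of the 12 members with the largest genotype difference. It was 0.72 in dcp5-1 and 3.04 in control, so most of the mean came from control, and without median centring its adjusted p was 0.0852. AT4G33730, of the pathogenesis-related 1 type, had 1.68 ± 0.49 (limma adjusted p = 0.0127), at -0.68, -0.53 and -0.66 in light dcp5-1 polysomal RNA against -1.33, -0.97 and -1.76 in total RNA. Its control arrays gave -2.66, -1.49 and -1.01 in polysomal RNA against -4.28, -2.57 and -6.20 in total RNA, so most of the mean came from control. Without replicate 3 its loading was 0.95 and the adjusted p 0.245. AT3G48450 had 1.77 ± 0.67 (limma adjusted p = 0.0487) and missed the threshold in 25 of 34 alternatives, with an adjusted p of up to 0.409. Its control arrays stood at -2.32, -2.36 and -2.22 in light polysomal RNA against -2.72, -6.30 and -6.18 in total RNA.

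Lower loading was found in AT5G17760, an AAA-type ATPase gene, at -1.58 ± 0.28 in the dark and -1.39 ± 0.28 in light (limma adjusted p = 0.000241 and 0.000788). In the dark it stood at -2.40, -1.56 and -1.65 in dcp5-1 polysomal RNA against -0.84, 0.06 and -0.26 in total RNA. In control it stood at -3.12, -3.11 and -3.46 in polysomal RNA against -2.32, -1.41 and -1.05 in total RNA. All pairs pointed the same way. The peroxidase AT5G66390 had -1.0 ± 0.18 in the dark (limma adjusted p = 0.000306), at 4.75, 5.44 and 5.36 in dcp5-1 polysomal RNA against 5.43, 6.29 and 6.12 in total RNA, and at 3.35, 3.94 and 3.52 in control polysomal RNA against 4.40, 5.25 and 4.85 in total RNA. In light 258586_s_at had -2.14 ± 0.30 and 246880_s_at -1.04 ± 0.32 (limma adjusted p = 2.07e-05 and 0.0173), and in the dark 260492_at had -1.13 ± 0.30 (limma adjusted p = 0.00623). For 258586_s_at the loading in light was -0.69 in dcp5-1 and -3.59 in control. Without replicate 3 that of 246880_s_at had an adjusted p of 0.287, and 0.0669 without the light polysomal control array of replicate 3 alone. Without replicate 2 that of 260492_at had 0.102. Without replicate 3 the loading of AT5G17760 in light was -1.15 with an adjusted p of 0.0787.

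In the lipid transfer group 4 of 15 members had a higher loading in darkness and 4 in light, where 16.7% and 17.0% of all tested probe sets did. They were AT5G05960, AT3G53980, AT5G01870 and AT2G37870, and AT3G22620 was lower in both. AT5G05960 stood at 3.69, 4.30 and 4.11 in dark dcp5-1 polysomal RNA against 2.59, 2.47 and 2.75 in total RNA, and at 1.90, 2.05 and 1.99 in control polysomal RNA against 1.25, 0.97 and 0.97 in total RNA. Of the 14 peroxidases 2 were lower in the dark, AT5G66390 and AT3G01190, and 0 higher. Of all tested probe sets 12.8% were lower in the dark, and nothing is read from these small counts.

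How far the genotype difference itself varied between the conditions is given as a description. Light minus dark of the difference had a median of 0.10 in total RNA, with 20 members at 1 or more and 14 at -1 or less, and a range from -2.87 to 1.90. In polysomal RNA the median was 0.08 with 19 and 18 such members. AT1G62510 had a difference smaller by 1.84 in light in total RNA, and AT5G08250 one larger by 1.90. AT3G62950, a glutaredoxin, had a difference larger in light by 1.86 in total RNA and 1.45 in polysomal RNA. Polysomal minus total RNA of the difference had a median of 0.00 in the dark and -0.01 in light, with 11 members at 1 or more in each and 6 and 14 at -1 or less. AT1G22690 had 1.87 in the dark and AT1G51920 2.33 in light.

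The members lay on all 5 chromosomes in TAIR10.1 gene order. They made up 2.02% of the tested genes on chromosome 1, 2.09% on chromosome 2, 1.59% on chromosome 3, 2.01% on chromosome 4 and 1.95% on chromosome 5, for 177 member genes placed among 9197 tested. Of neighbouring members, 6 pairs had at most 2 protein-coding genes between them, and 3 of these were adjacent: AT1G14950 with AT1G14960, AT2G43610 with AT2G43620, and Prx37 with AT4G08780. Adjacent copies of a family can share probe signal. Within 100 protein-coding genes of DCP5 there were 65 tested genes and 0 members. The member genes were shorter, with a median annotated length of 1560 bases (179 genes) against 2277 for the tested genes (9479). On average over the 24 arrays, 41.0% of the members and 66.8% of all tested probe sets were brighter than the array median, which describes the probes and not transcript amounts.

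Just inside the threshold lay AT5G17760, AT5G17340 and AT5G43520, whose smallest differences were 0.803, 0.804 and 0.804. Just outside lay 262119_s_at, 248932_at and the chitinase gene CHI, with 0.798, 0.798 and 0.796. Between 0.7 and 0.8 there were 79 tested probe sets, and 67 members were under 0.9. In the other direction, 68 probe sets were lower in dcp5-1 by 0.8 or more in all 4 conditions, against 334 that were higher before any name was left out.

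Genes of related pathways that are no members were looked at apart. Over 8 lists of root, seed, abscisic acid, jasmonate, phenylpropanoid and processing body genes, 1 to 5 genes of a list were tested, since most carry no single name in the table. AT4G26010, the only member among them, was left out, as were names of the rule that met its thresholds. LEA4-5, which the rule names too, was counted, since at 0.77 in light total RNA it was just under the threshold. Limma called 0 of the counted genes higher or lower in dcp5-1 in any of the 4 conditions. At an unadjusted p under 0.05 LEA4-5 was higher in dark total and dark polysomal RNA and COR47 in dark polysomal RNA, 3 values in all. Of 17059 tested probe sets, 2264 were under that p in dark total and 2796 in dark polysomal RNA, in either direction. Of all tested probe sets, members among them, limma called 1.58% higher and 0.944% lower in dark total RNA, and 1.92% and 1.49% in dark polysomal RNA. In light it called 2.58% higher and 0.938% lower in total RNA, and 2.81% and 1.44% in polysomal RNA. Of the abscisic acid list COR47, a dehydrin, differed by 0.25 to 0.47, and of the phenylpropanoid list HCT, a lignin enzyme, by 0.02 to 0.16. PDF1.2b, a jasmonate-responsive defensin, differed by 1.43, 0.98, 0.54 and 0.40 in dark total, dark polysomal, light total and light polysomal RNA, none of which passed the test. The 5 processing body genes tested were LSM1A and LSM1B, of the complex that binds decapping targets, AT1G79090, a PAT1-type gene, and AT3G61240 and AT2G45810, DHH1-type RNA helicase genes. Their differences lay between -0.49 and 0.21.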

How the data were processed

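Total and polysome-bound RNA of dcp5-1 and control seedlings was hybridised to 24 ATH1 arrays, 3 in each of 8 groups. The authors deposited log2 signals made with GCOS 1.4, per the submitters' processing notes. On the total-RNA arrays the lowest deposited value was a log2 of 0, and the polysomal arrays were on scales of their own, so each array was centred on its median. Probe sets whose mean over 24 arrays was in the lower 25% were left out, as were 64 control probe sets.

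A linear model of the 8 group means was fitted to the 17059 remaining probe sets with limma 3.58.1 in R 4.3.3 (lmFit, eBayes with an intensity trend), and p-values were adjusted by Benjamini-Hochberg over all of them at 0.05. Members were found, and figures drawn, with Python 3.11.15, pandas 2.3.3, numpy 2.4.6 and matplotlib 3.10.9. The fit was tested on simulated data. Light changes and polysomal minus total values were averaged over the genotypes. The labels do not say whether replicates came from separate cultures, so the p-values measure the spread between these samples, which may be technical.

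Replicate numbers come from the labels. Same-number arrays of different groups deviated together, with residual correlations of 0.15 to 0.61 in all 12 pairs of groups. The numbers were taken to pair the samples in the same-number pairs and in the replicate block, which is an alternative. The main fit had no such block, so its p-values and standard errors leave the pairing out.

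The members and gene lists were chosen with earlier results of these data known, and the role groups and gene families were written after the members were seen. Every member with 1 gene is named. Array values are given for those among the 12 with the largest mean difference and for the 3 largest called changes in each direction of each tested comparison, with further members of each role chosen after their values were seen. Most probe sets without a gene name are given by their range. Alternatives were deposited values without centring, quantile normalization, a replicate block, array weights, no variance trend, other filters and thresholds, fits of 4 groups, and each replicate number left out. Single arrays left out, and the light change of loading, were added after the data were seen. The number of value columns with no sample was 0. Promoter and protein sequences were not analysed here.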

Additional observations from a re-analysis of the deposited data

Results flagged for a closer look

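AT1G22690, the gene of a GASA-type peptide, stood out because its polysomal minus total value in the dark was above 0 in every dcp5-1 replicate and below 0 in every control replicate. It was 0.21, 0.52 and 0.87 in dcp5-1 (replicates 1, 2 and 3), against -0.63, -1.70 and -1.69 in control, a difference of 1.87 (log2). This difference was not tested.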

How the results depend on the processing

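Of 829 values of the 24 named comparisons under alternatives, 792 kept their direction and their side of the threshold, 34 no longer passed it and 3 reversed, the last all without median centring (loading in the dark of AT1G78110 at -0.29, AT1G65500 at -0.37 and AT3G53980 at -0.54). Deposited values without centring carry the scale of each polysomal array. They gave 47 members lowered by light in total RNA, and 118 raised and 14 lowered in polysomal RNA. Of 17059 tested probe sets, 2232 were lowered in total RNA, and 11372 raised and 505 lowered in polysomal RNA. For loading they gave 0 members higher and 296 lower in the dark, and 0 higher and 145 lower in light. Over all tested, 16786 were lower in the dark and 12632 in light. The light change of loading was higher in 58 members, against 8663 over all tested. For genotype the uncentred values called 98 of all tested probe sets in dark total and 10143 in dark polysomal RNA. In light they called 152 in total and 176 in polysomal RNA. With centring the counts were 430, 581, 600 and 724 in that order. With the lower 50% of probe sets left out, so that fewer were tested, 133 probe sets met the rule. Light lowered 40 of these in each fraction, against 3181 of 11373 tested in total RNA and 3089 in polysomal RNA. The replicate block gave 42 members raised by light in polysomal RNA, 23 with lower loading in the dark and 1 with a higher light change of loading, and changed no other of the members' light and loading counts by over 1.5 times. For genotype it called 1138, 1612, 1508 and 1710 probe sets in the same order of conditions. Array weights gave 1 member with a higher light change of loading, and called 1148 in dark total and 1743 in light total RNA. Fits of 4 groups called 315 in dark polysomal and 421 in light polysomal RNA. With a threshold of 1 in place of 0.8, 211 probe sets met the rule, and with 0.6, 492. Leaving out 1 replicate or array at a time gave 20 to 35 members raised and 45 to 89 lowered by light in total RNA, and 17 to 35 raised and 44 to 76 lowered in polysomal RNA. For loading it gave 13 to 37 higher and 4 to 14 lower in the dark, 14 to 51 higher and 4 to 13 lower in light, and 0 to 1 higher and 0 lower for its light change. For genotype it called 58 to 486 in dark total, 72 to 640 in dark polysomal, 98 to 665 in light total and 116 to 758 in light polysomal RNA, and 271 to 332 probe sets met the rule. The shares over all tested probe sets changed in these fits as well. Without replicate 3, light raised 12.9% and lowered 14.6% in total RNA, and 6.13% had a higher loading in the dark. Without replicate 1, light raised 15.8% and lowered 18.1% in total RNA. The causes of the other changes were not tested. The dimness of the members, 41.0% of which were brighter than the array median, limits the precision of their values.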
